A study of Rattus norvegicus with 8 samples.

Results

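Glycine and GABA transport, the glycine receptor and its scaffold were examined through 9 genes among the 17666 named genes of a rat hippocampus array. The genes are the transporters Slc6a5, Slc6a9, Slc6a11 and Slc6a12, the receptor subunits Glra1, Glra2, Glra3 and Glrb, and the scaffold gene Gphn. They were chosen from measured values: Slc6a5 stood among the largest falls of an earlier analysis of the same arrays, and the others were added as its family and partners. The differences between groups reported for them are therefore descriptions and carry no test. Together they have 12 of the 30367 probes of the array, all of which were used, and 11 of these, for 8 genes, passed the filter on low signals. The exception was the Glra3 probe.

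The study measured hippocampal RNA of male Sprague Dawley rats aged 3 months. For 7 days the animals received either vehicle or Y+I, the combination of yohimbine, which blocks alpha2-adrenoceptors, and imipramine, a tricyclic that raises noradrenaline and serotonin by blocking their uptake. Tissue was taken 2 h after treatment. Each group held 4 animals with 1 single-colour array each, so n = 4 for every group mean, and arrays of either drug alone were not analysed here. The tissue was bulk hippocampus, in which fewer cells of a type and less RNA per cell cannot be told apart.

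Glycine and GABA are the main inhibitory transmitters of the central nervous system. Glycine acts on chloride channels built from alpha subunits and a beta subunit, and the beta subunit ties the receptor to gephyrin, which also anchors GABA-A receptors. Transporters of the Slc6 family end the signal by taking the transmitter back into neurons or glia. Fast glycine synapses are best known from brainstem and spinal cord, whereas the hippocampus holds mostly GABA synapses and extrasynaptic glycine receptors.

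Between 76.4% and 79.7% of the spots of a vehicle array were well above background, against 64.4% to 74.8% on Y+I arrays, with the fewest in Y+I animals 2 and 3. The 75th percentile of the signal, to which each array was scaled, reached from 1939 to 2106 scanner units in vehicle. The Y+I arrays reached from 1045 in animal 4 to 1971 in animal 3. The 8 arrays filled 1 slide, vehicle in one row and Y+I in the other row, and treatment and row of the slide cannot be told apart. Of 21370 probes tested with limma, 453 passed an adjusted p under 0.05 (2.12%), and 314 of them were lower in Y+I (1.47%). The median difference over all probes was -0.02 log2 units, and 46.0% of probes were higher in Y+I. Of 10 markers of hippocampal neurons, 9 were measured, and Tdo2 was not well above background on any array.

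Slc6a5 encodes the neuronal glycine transporter GlyT2, which refills glycinergic terminals and is a marker of glycinergic neurons. Its 2 probes gave different values, so the last 30 of the 60 bases of each are shown, with positions on build rn4 of the rat genome. Whether a probe covers coding sequence or a UTR is not given in the labels or file headers. The probes start 4432 bases apart in the transcript.
Slc6a5 brighter probe, chr1:99793114-99793173, plus strand: agaagtcattactcttgaggccctacctca
Slc6a5 dimmer probe, chr1:99786137-99786196, plus strand: aatgtatctggctcctgggagatttattga

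The brighter Slc6a5 probe read 281, 115, 131 and 148 scanner units in vehicle animals 1 to 4, against 38.3, 20.7, 12.2 and 22.5 units in Y+I animals 1 to 4. On the normalised log2 scale, which sets log2 of the signal against the array's 75th percentile, vehicle stood at -2.85, -4.17, -3.89 and -3.84 and Y+I at -5.80, -6.41, -7.33 and -5.55. All 4 Y+I animals lay below all 4 vehicle animals. The signal was well above background on every vehicle array and on 2 of the 4 Y+I arrays, those of animals 1 and 4. In Y+I animal 1 this held for 1 of the 2 spots of the probe. The low end of the Y+I values is therefore poorly measured. The difference was -2.59 ± 0.41 log2 units (SE, 95% interval -3.52 to -1.66), a 6.02-fold lower signal.

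This difference is the one for which the gene was chosen, and 0.08% of the probes tested differed by more. Of the 11 kept probes of the set 1, this one, passed the threshold, against 2.12% of all probes. It entered through the vehicle group, where it was high, so nothing is read from the call. The Y+I values below the lowest signal well above background on their array, those of animals 2 and 3, were raised to that signal. The difference was then -1.77, or 3.41-fold. With normexp, a background correction with an offset added to every signal, it was -0.90. Leaving out 1 array at a time gave -2.83 to -2.24, and leaving out Y+I animals 2 and 3, where it was not well above background, gave -1.99.

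The dimmer Slc6a5 probe was close to background in vehicle already, so a fall of the size seen at the brighter probe could hardly have been measured with it. It stood at -5.58, -5.98, -6.65 and -6.06 in vehicle and at -5.87, -6.28, -7.07 and -6.27 in Y+I. The groups overlapped throughout, and the difference was -0.31 ± 0.29 (SE, 95% interval -0.96 to 0.35). Normexp turned its sign, to 0.21. This probe, too, was well above background on Y+I arrays 1 and 4 and not on the other 2. In Y+I animal 4 this held for 1 of its 2 spots. Its signals over the 8 arrays ran from 13.9 to 44.5 units. The mean of both probes differed by -1.45.

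Glycinergic neurons are abundant in brainstem and spinal cord, so markers of these regions are given beside Slc6a5. Of 14 such genes 11 were on the array and 7 passed the filter, of which 0 passed the test in limma (1 had an unadjusted p under 0.05). Their median difference was -0.12, and their mean level per array was -5.54 to -5.19 in vehicle and -5.39 to -5.06 in Y+I animals. That level is near the detection limit, which stood at -5.38 and -5.09 in Y+I animals 2 and 3. Slc6a4, Chat and Hoxc4 were well above background on 0, 1 and 1 of the 4 Y+I arrays, so a fall in these genes is poorly measured. The hindbrain genes Hoxa5 and Hoxb3 were not well above background on any array. The smallest p-values belonged to Dbh, which makes noradrenaline, and Tph2, which makes serotonin, at 0.51 ± 0.18 (SE, limma adjusted p = 0.218) and 0.68 ± 0.31 (adjusted p = 0.346). Markers of thalamus, habenula and striatum had a median of -0.55 over 14 measured genes, with a mean level per array of -1.98 to -1.58 in vehicle and -2.20 to -2.08 in Y+I animals. Of these 14 genes 11 lay below 0 and 3 above. In limma 9 of the 14 had an unadjusted p under 0.05, and 2 of these were higher in Y+I. The share past the threshold was 21.4%, with 2 genes lower and 1 higher, against 2.12% of all probes. In this list Slc17a6, a vesicular glutamate transporter gene, fell by 1.17 log2 units, the dopamine receptor gene Drd2 fell by 0.60, and Tac3, which encodes neurokinin B, rose by 0.81 (limma adjusted p = 0.0311, 0.0306 and 0.0278). These calls held in 2, 1 and 2 of the 8 fits with 1 array left out. The part of this tissue in the Slc6a5 values was not tested.

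Slc6a9 encodes GlyT1, the glycine transporter of astrocytes and of some glutamatergic terminals. Its brighter probe (chr5:138334287-138334346) read -1.18, -1.23, -0.99 and -1.07 in vehicle and -1.33, -1.50, -1.05 and -1.42 in Y+I. The lowest 3 values were those of Y+I animals, but Y+I animal 3 lay among the vehicle animals. The difference was -0.21 ± 0.12 (SE, 95% interval -0.48 to 0.06). The dimmer probe (chr5:138333457-138333516) gave 0.08 ± 0.18 (95% interval -0.32 to 0.48). Its vehicle values spread from -4.50 to -3.78 and held all 4 Y+I values between them. Neither probe passed, and their signs differed, as they did with normexp (-0.12 and 0.22). Astrocyte markers, of which 10 of 10 were measured and 0 passed in limma (1 with an unadjusted p under 0.05), had a median of -0.03. Their smallest p-values were those of Aldh1l1, a folate enzyme gene, at -0.38 ± 0.14 (SE, limma adjusted p = 0.238) and of the growth factor receptor gene Fgfr3 at -0.48 ± 0.34 (adjusted p = 0.556). The other Fgfr3 probe gave 0.15.

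Slc6a11 encodes GAT3, the GABA transporter of astrocytes. Its probe (chr4:150195271-150196078, a span of 808 bases for a probe of 60) read -5.04, -5.25, -5.06 and -5.05 in vehicle and -5.19, -5.25, -5.20 and -4.42 in Y+I. Y+I animal 4 stood above the other 7 animals, which lay within a narrow band. The difference of 0.08 ± 0.19 (SE, 95% interval -0.34 to 0.50) became -0.115 without that animal. Before scaling, animal 4 was not the brightest: its 48.7 units lay within the Y+I range of 37.0 to 55.2. The probe was dim throughout: in Y+I animals 2 and 3, 1 of its 2 spots was well above background, and normexp gave 0.27.

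Slc6a12 encodes BGT1, which carries betaine and GABA. Its probe (chr4:157799589-157799648) read -4.17, -4.20, -4.51 and -4.34 in vehicle and -4.03, -4.31, -4.65 and -3.74 in Y+I. The Y+I animals held both the highest and the lowest value, and the difference was 0.12 ± 0.19 (SE, 95% interval -0.30 to 0.55). It was 0.42 without Y+I animals 2 and 3 and turned to -0.03 without Y+I animal 4.

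**Figure D1:**
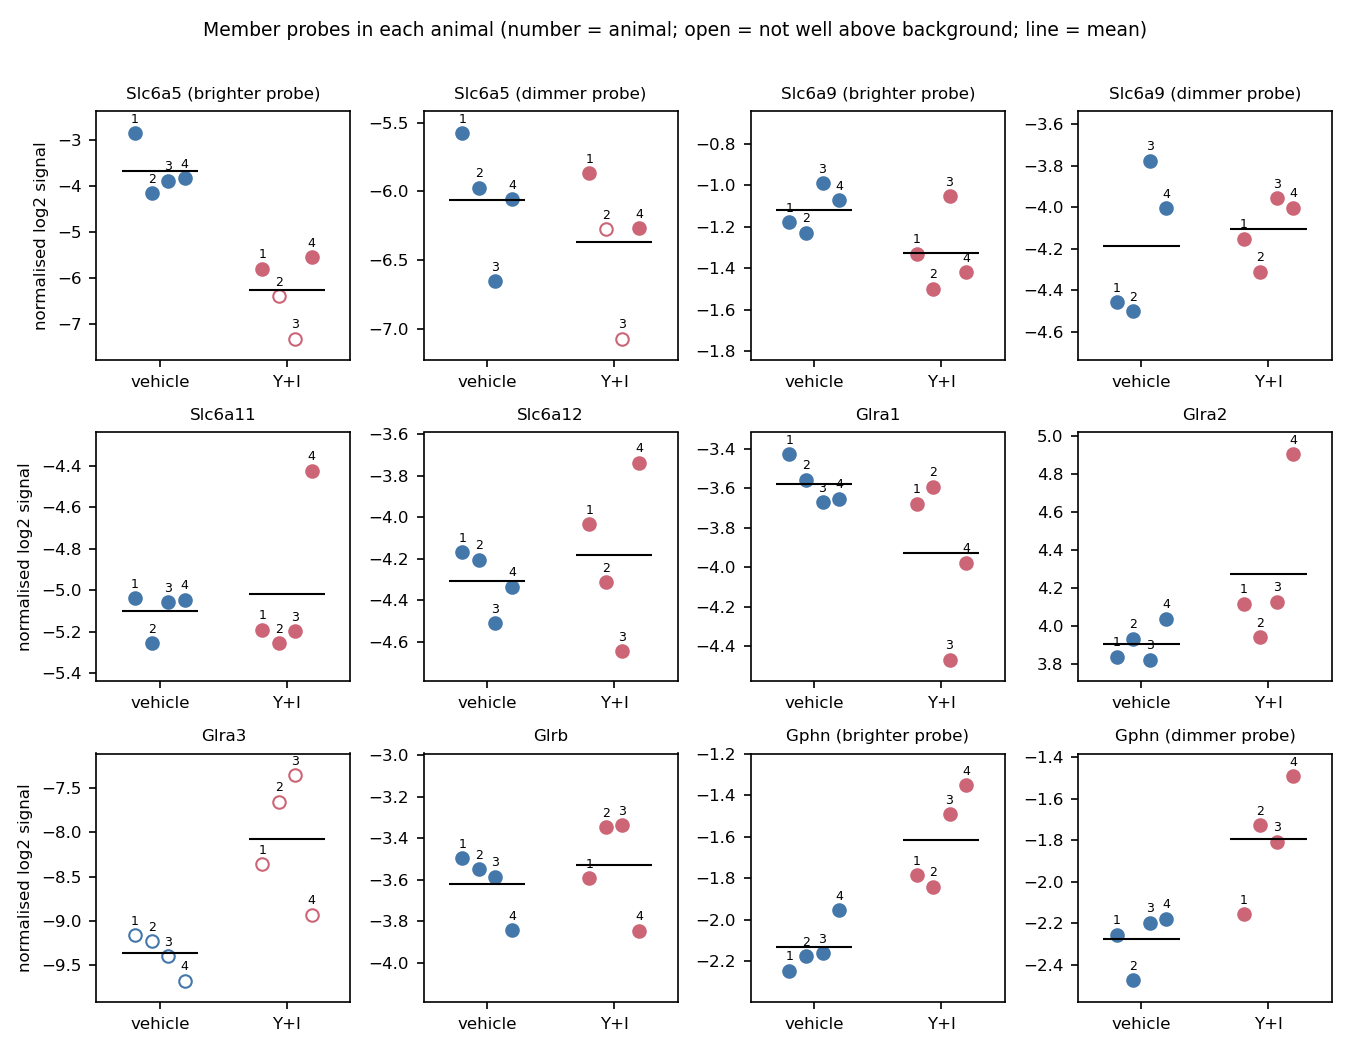
Normalised log2 signal of each of the 12 probes (vertical axes, each on its own range) in the 4 vehicle and 4 Y+I animals. Points are animals with their number, open where the probe was not well above background, and lines are group means. The groups are apart for the brighter Slc6a5 probe and both Gphn probes, while Glra3 was open on all 8 arrays.

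Among the receptor subunits, Glra1 encodes alpha1, the adult subunit of brainstem and spinal cord. Its probe (chr10:40923510-40923569, minus strand) read -3.43, -3.56, -3.67 and -3.65 in vehicle and -3.68, -3.59, -4.47 and -3.98 in Y+I. Y+I animals 3 and 4 lay below every vehicle animal, animal 1 was level with the lowest of them and animal 2 lay among them. The difference of -0.35 ± 0.19 (SE, 95% interval -0.77 to 0.07) did not pass and shrank to -0.08 with normexp and to -0.17 without Y+I animal 3.

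Glra2 encodes alpha2, the subunit of the immature nervous system and of extrasynaptic receptors. Its probe (chrX:49977287-49977346) read 3.84, 3.93, 3.82 and 4.04 in vehicle and 4.12, 3.94, 4.13 and 4.91 in Y+I. Y+I animal 4 stood alone, and Y+I animal 2 lay within the vehicle range. The difference was 0.37 ± 0.20 (SE, 95% interval -0.08 to 0.81), and 0.15 without Y+I animal 4. Before scaling, the signals overlapped widely, from 27415 to 34611 units in vehicle and from 21608 to 34468 in Y+I.

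The Glra2 probe is unusual in sequence: 32 of its 60 bases are a run of alternating C and A. Bases 21 to 50 are shown because they hold the start of that run, in capitals.
Glra2 probe, chrX:49977287-49977346, plus strand: gtttaatgCACACACACACACACACACACA

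A run of at least 20 bases of repeated CA or AC was found in the strand of 14 of the 30367 probes (0.0461%), and all 14 were kept. This search was made after the Glra2 values were seen, and its result is a description. The other 13 probes, which include those of Cx3cr1, Pura, Tmem47, Rassf2, Ptprn2 and Extl3, were compared with it. All 13 were higher in Y+I, by 0.30 to 0.51 log2 units with a median of 0.39, and 0 passed the threshold. Their medians in Y+I animals 1 to 4, relative to the vehicle mean of each probe, were 0.13, 0.04, 0.27 and 1.01, where Glra2 stood at 0.21, 0.03, 0.22 and 1.00. On the Y+I arrays Glra2 thus lay near the median of the 13, least closely in animal 1. In Y+I animal 4 each of the 13 had its highest value of the 8 arrays, as did 21.6% of all kept probes and 5 of the 11 kept probes of the glycine and GABA set. With normexp the median of the 13 was 0.37 and Glra2 stood at 0.31. The 13 were also bright on the normalised log2 scale: all 13 had a mean level above 0, against 29.99% of all kept probes. Their levels ran from 0.48 to 5.18, and Glra2 stood among them at 4.09.

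On the other strand the same run, read as GT or TG in the probe, was found in 6 probes (0.0198%), all kept. They did not share the pattern: 2 were higher in Y+I, their differences ran from -0.08 to 0.06, and Y+I animal 4 was highest in 0 of 6. How much of the Glra2 signal comes from the Glra2 transcript was not tested.

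**Figure D2:**
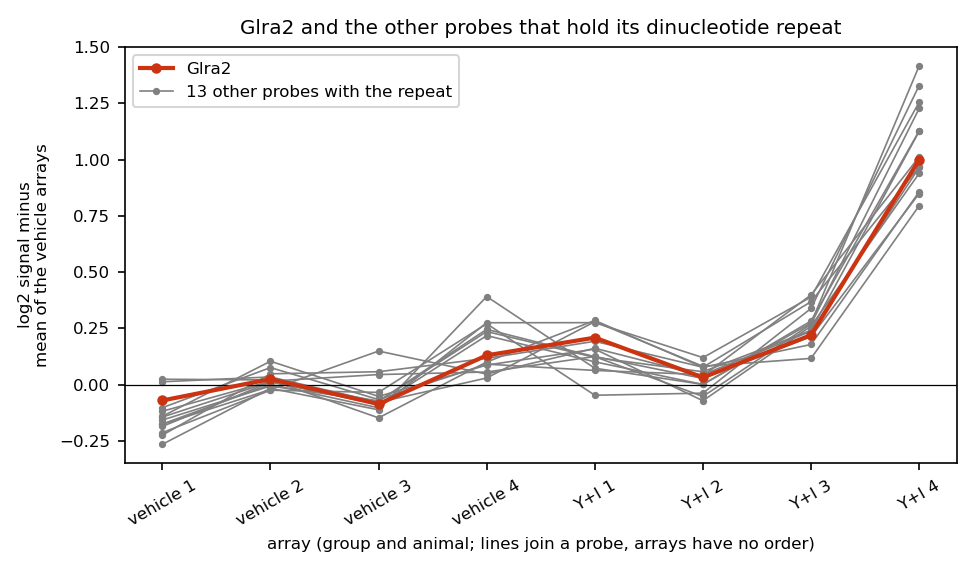
Normalised log2 signal minus the probe's vehicle mean (vertical axis, log2 units) on each of the 8 arrays (horizontal axis) for the Glra2 probe in red and the 13 other probes with a run of at least 20 alternating C and A bases in grey. Lines run from -0.26 to 0.39 in vehicle and each is highest in Y+I animal 4, where Glra2 stands at 1.00 and the median of the others at 1.01.

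Glra3 encodes alpha3, a subunit best known from spinal pain circuits. Its probe (chr16:37851188-37851247) read 2.57 to 3.54 scanner units on vehicle arrays and 2.14 to 12.1 on Y+I arrays, and was not well above background on any of the 8 arrays. These readings are below what the arrays could measure, so no fold is given. Its higher log2 values in Y+I, visible in the plot by animal, are values below the detection limit of each array, which was also higher in Y+I: the dimmest probe counted as well above background stood at -7.41 to -6.88 on vehicle arrays and at -6.74 to -5.09 on Y+I arrays.

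Glrb encodes the beta subunit, which binds gephyrin. Its probe (chr2:172451970-172452029, minus strand) read -3.50, -3.55, -3.58 and -3.84 in vehicle and -3.59, -3.35, -3.34 and -3.85 in Y+I. The groups overlapped from end to end. The difference was 0.09 ± 0.14 (SE, 95% interval -0.23 to 0.41), 0.23 with normexp and -0.10 without Y+I animals 2 and 3.

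Gphn encodes gephyrin, which anchors glycine and GABA-A receptors at the synapse and also makes molybdenum cofactor. Its 2 probes start 164 bases apart in the transcript and gave the same direction, so the last 30 bases of each are shown.
Gphn brighter probe, chr6:101301993-101302052, plus strand: aagacagagcagtatgtggaacttcacaaa
Gphn dimmer probe, chr6:101302157-101302216, plus strand: aaaagttgatctgtatagtcaacatcttga

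The brighter Gphn probe read -2.24, -2.17, -2.16 and -1.95 in vehicle and -1.79, -1.84, -1.49 and -1.35 in Y+I. The dimmer probe read -2.26, -2.47, -2.20 and -2.18 in vehicle and -2.16, -1.73, -1.81 and -1.49 in Y+I. In both probes all 4 Y+I animals lay above all 4 vehicle animals, though in the dimmer one Y+I animal 1 was close to vehicle animal 4. The differences were 0.52 ± 0.13 (SE, 95% interval 0.21 to 0.82), or 1.43-fold, and 0.48 ± 0.15 (95% interval 0.14 to 0.82), or 1.40-fold. Neither passed the threshold over all probes. The brighter probe stood at 0.51 with normexp and at 0.55 with cyclic loess normalisation, past the threshold in both, from which nothing is read either. Without Y+I animal 4 the differences were 0.43 and 0.38.

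Before scaling, the signals of the brighter Gphn probe ran from 429 to 545 units in vehicle and from 393 to 701 in Y+I, and overlapped. The separation between groups thus appeared after each array was divided by its 75th percentile. Gphn was well above background on all 8 arrays with both probes. Markers of hippocampal neurons had a median of 0.50 over 9 measured genes, and their mean level per array was -1.48 to -1.27 in vehicle and -1.20 to -0.79 in Y+I animals. Of the 9 genes, 6 lay above 0 and 3 below: C1ql2 at -0.08, Spink8 at -0.12 and Dsp at -0.31. Prox1, Spink8 and Dsp were well above background on 2, 3 and 2 of the Y+I arrays. None of the 9 passed the threshold in limma (5 had an unadjusted p under 0.05). The smallest p-values were those of Neurod6, a transcription factor gene of pyramidal cells, at 0.59 ± 0.15 (SE, limma adjusted p = 0.102) and of Wfs1, a CA1 marker, at 1.19 ± 0.33 (adjusted p = 0.118). Their part in the Gphn values was not tested.

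Over the 11 kept probes, 7 were higher in Y+I and 4 lower, with a median difference of 0.08. The groups did not overlap in 3 of the 11, the brighter Slc6a5 probe and both Gphn probes, as in 11.5% of all probes, and in 2 of the 11 they did not overlap with Y+I the higher group, as in 5% of all probes. Since the set was chosen on this comparison, nothing is read from these counts. Y+I animals varied more than vehicle animals in 10 of the 11 probes, against 78.4% of all probes. For the 11 probes the median SD was 0.135 among vehicle animals and 0.388 among Y+I animals, on the log2 scale, against 0.135 and 0.244 for all probes. The wider Y+I spread limits what could be seen, and apart from Slc6a5 and Gphn the 95% intervals reached from -0.77 (Glra1) to 0.81 (Glra2).

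**Figure D3:**
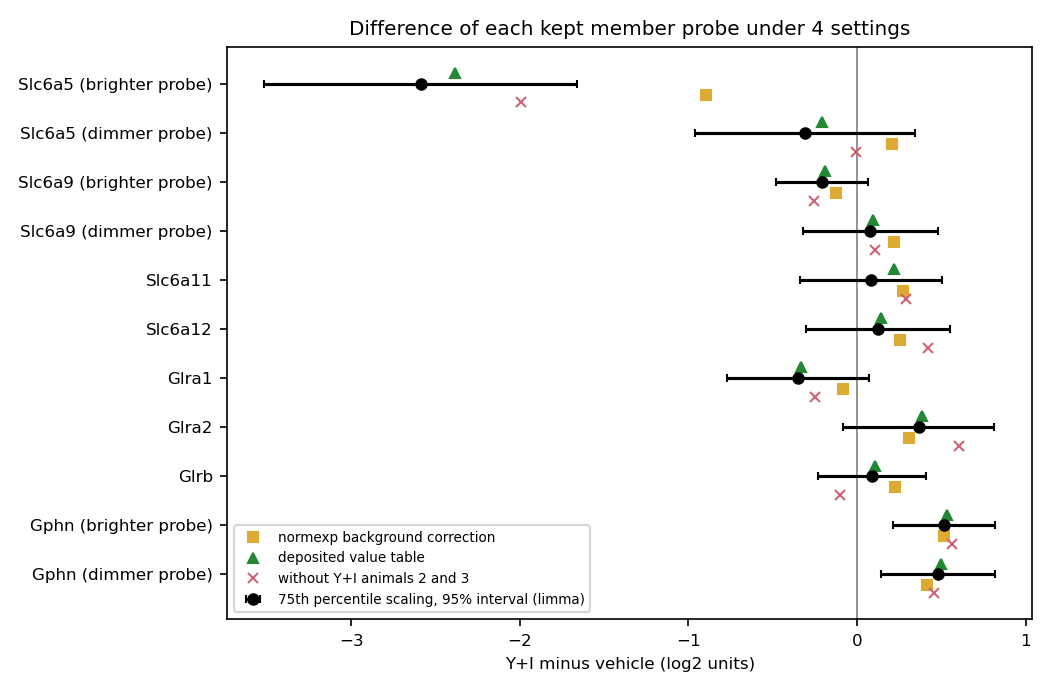
Difference between Y+I and vehicle (horizontal axis, log2 units) for the 11 kept probes. Black points with bars are limma estimates with 95% intervals, and other symbols are normexp background correction, the deposited value table and the fit without Y+I animals 2 and 3. The brighter Slc6a5 probe moves from -2.59 to -0.90 with normexp, and both Gphn probes stay above 0 in each setting shown.

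The genes whose 8 values, each relative to the vehicle mean of the gene, lay nearest to those of the brighter Slc6a5 probe were Chrna4, Mybpc1 and Nxph3. Their mean absolute distances over the 8 arrays were 0.26, 0.27 and 0.36 log2 units. Chrna4 is a nicotinic receptor subunit gene and differed by -2.76 ± 0.25 (SE), and Nxph3, a neurexin ligand gene, by -2.82 ± 0.27. Mybpc1, a myosin-binding protein gene, differed by -2.25 ± 0.29. Chrna4, Mybpc1 and Nxph3 were well above background on 3, 1 and 4 of the Y+I arrays. For the brighter Gphn probe the nearest were Zscan26, Nphp4 and Bhlhe41, at 0.047, 0.049 and 0.058. They differed by 0.47 ± 0.16, 0.48 ± 0.14 and 0.57 ± 0.15, and were well above background on 2, 4 and 4 of the Y+I arrays. These genes were found by their likeness in this comparison, so their values are descriptions too.

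Around these genes, 39 others of the same pathways were all measured, and 1 of them (2.56%) passed the threshold, as lower in Y+I, a share near that of all probes. It was Slc6a13, which encodes GAT2, a GABA and taurine transporter of the meninges, blood vessels and liver. It read -3.08, -3.19, -3.43 and -3.29 in vehicle and -3.97, -4.40, -4.19 and -4.52 in Y+I, with no overlap. The fall was 2.03-fold, or -1.02 ± 0.14 log2 units (SE, limma adjusted p = 0.0117). It was well above background on all 8 arrays and passed whichever array was left out, with adjusted p-values up to 0.0468. Normexp gave -0.49 (adjusted p = 0.0305), and leaving out Y+I animals 2 and 3 at once ended the call (adjusted p = 0.0664). An earlier analysis of these arrays had shown this fall, so it is no independent finding.

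Slc6a13 is also a marker of meningeal fibroblasts, and other genes of that list fell. Of 13 listed genes, Slc6a13 included, 12 were measured, 11 of them below 0, with a median of -0.58. In limma 8 of the 12 had an unadjusted p under 0.05, and 0 of these were higher in Y+I. The share past the threshold was 25%, all lower in Y+I, against 2.12% of all probes. The list's mean level per array was -1.71 to -1.51 in vehicle and -2.32 to -2.05 in Y+I animals, with no overlap. Besides Slc6a13, the collagen gene Col1a1 (-1.03 ± 0.15 SE, limma adjusted p = 0.0145) and the growth factor binding protein gene Igfbp2 (-0.73 ± 0.15, adjusted p = 0.0411) fell. These calls held in 7 and 1 of the 8 fits with 1 array left out, and the other Col1a1 probe gave -0.16. Of 7 endothelial markers, the receptor gene Kdr fell (-1.04 ± 0.13 SE, limma adjusted p = 0.0106), a share of 14.3%. The Kdr call held in 8 of the 8 fits with 1 array left out. It also held without Y+I animals 2 and 3 (limma adjusted p = 0.0275). The other 6 markers did not pass, among them Pecam1 (-0.25 ± 0.10, adjusted p = 0.246), and the median of the 7 was -0.15. Of 8 choroid plexus markers 3 were measured and 0 passed in limma (1 with an unadjusted p under 0.05), with a median of -0.24. Their mean level per array varied widely between animals, from -4.36 to -2.15 in vehicle and from -3.64 to -2.87 in Y+I. Ttr differed by -0.33 ± 1.16 (SE), and ran from -2.80 to 2.14 in vehicle and from -2.58 to 0.43 in Y+I. The folate receptor gene Folr1 stood at 0.88 ± 0.38 (SE, limma adjusted p = 0.315) and the water channel gene Aqp1 at -0.24 ± 0.19 (adjusted p = 0.603). The part of meningeal tissue in the Slc6a13 value was not tested.

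In the list of GABA synthesis, loading, uptake and breakdown, 11 of 12 genes did not pass, 8 of 12 lay below 0 and the median was -0.08. Gad1, which makes GABA, differed by -0.29 ± 0.09 (SE, limma adjusted p = 0.152), with -0.60 at its other probe, and Abat, which breaks GABA down, by -0.36 ± 0.11 (adjusted p = 0.165). Among these 12 genes the groups did not overlap in Slc6a13, Gad1, Abat and Slc32a1, against 11.5% of all probes. In limma 4 of the 12 had an unadjusted p under 0.05, and 0 of these were higher in Y+I. Gad2, the other GABA-making enzyme gene, stood at 0.38 ± 0.18 (adjusted p = 0.361). The vesicular carrier gene Slc32a1, which loads GABA and glycine, stood at -0.34 ± 0.12 (adjusted p = 0.202). Markers of inhibitory neurons, a list that also holds Gad1, Gad2 and Slc32a1, had a median of -0.22 over 10 genes. Of these 7 lay below 0 and 3 above. In limma 5 of the 10 had an unadjusted p under 0.05, and 0 of these were higher in Y+I. The serotonin receptor gene Htr3a, of a class of interneurons, fell (-0.99 ± 0.13, limma adjusted p = 0.0106), while the neuropeptide gene Vip stood at -0.51 ± 0.12 (adjusted p = 0.080). Htr3a passed whichever array was left out. It missed the threshold in limma when Y+I animals 2 and 3 were left out at once (adjusted p = 0.0604). It also missed it with the animal number as a block (adjusted p = 0.0651). The mean level of the inhibitory list per array was 1.08 to 1.29 in vehicle and 0.90 to 1.04 in Y+I animals.

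In the list of glycine and serine metabolism and carriers, 0 of 14 genes passed in limma, 1 had an unadjusted p under 0.05 and the median was -0.05. That gene was Shmt1, which interconverts serine and glycine, at 0.34 ± 0.13 (SE, limma adjusted p = 0.248). Gcsh, of the glycine cleavage system, stood at -0.19 ± 0.09 (adjusted p = 0.371). In the list of gephyrin partners and molybdenum cofactor genes, 0 of 13 passed in limma, 1 had an unadjusted p under 0.05, 11 lay above 0 and the median was 0.06. The smallest p-values were those of the dynein light chain genes, whose proteins bind gephyrin: Dynll2 stood at -0.20 ± 0.09 (SE, limma adjusted p = 0.326) and Dynll1 at 0.26 ± 0.12 (adjusted p = 0.334).

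**Figure D4:**
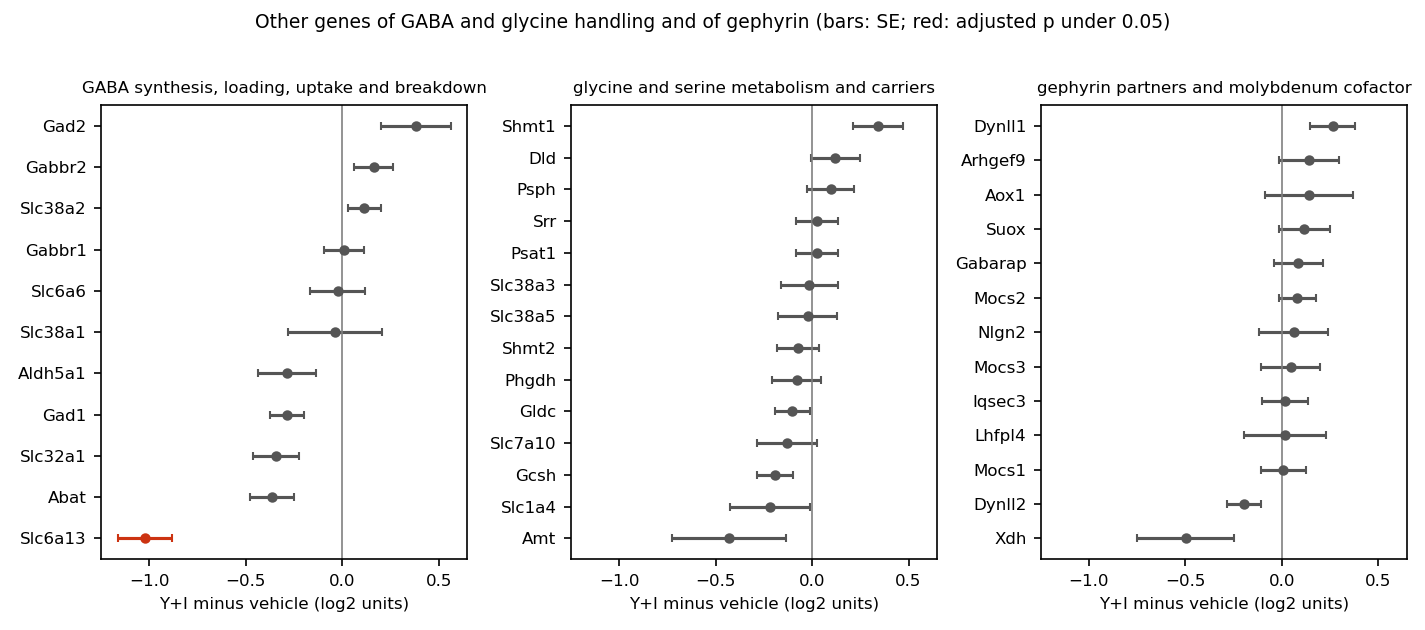
Difference between Y+I and vehicle (horizontal axes, log2 units, bars are SE) for 38 of the 39 other genes, each by its brightest kept probe, in 3 lists. Slc6a13, in red at -1.02, is the gene that passed the threshold, and the others shown did not.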

How the data were processed

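RNA of 8 animals was labelled with Cy3 after oligo-dT priming, per the labels' protocols, and hybridised to Agilent arrays. Per the file headers, Agilent Feature Extraction 10.5.1.1 gave each spot a background-subtracted and detrended intensity that the authors deposited without normalisation between arrays. A deposited table gives log2 values for those arrays (r of at least 0.9986 with the scanner values, medians of -3.51 to -3.35). No source used here gives its centring, so it served as an alternative only. Probe positions are those of the files (build rn4).

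Values used were log2 processed signals less the array's 75th percentile over noncontrol spots. Outlier spots were left out and the 2 spots of a probe averaged. A probe was kept if at least 50% of its spots were well above background on each of the 4 arrays of either group, with 3 or more values per group. Since a probe can pass through 1 group alone, falls to background are kept and their size is uncertain. Each probe was 1 feature in lmFit and eBayes of limma 3.58.1 (R 4.3.3), two-sided, Benjamini-Hochberg adjusted over 21370 probes, threshold 0.05. The procedure was tested on simulated data. Probe names were updated by accession (18004), symbol (2320) or synonym (626) through the RefSeq table given, 165 kept the file's name and 9252 had none. All 12 probes of the 9 genes matched by accession. Of listed genes with several probes the brightest kept one was used.

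The members, lists, tests and alternatives were chosen with earlier results of these data known. Named were all members, and of each pathway list every gene that passed and the 2 others with the smallest p. Of each marker list every gene that passed and at least the 2 with the smallest p were named. The 3 nearest genes to 2 member probes were named too. Gad2 and Slc32a1, further marker genes, the genes of the probes with a CA run and the search for that run were added after values were seen. Alternatives were other normalisations (quantile, median, cyclic loess), normexp with an offset of 50, the value table, filters, probe summaries, an animal-number block, variance models, array weights and arrays left out. Same-numbered animals did not deviate together (correlations of -0.11 to 0.04), so the numbers were not treated as pairs. The labels describe separate animals. Results for some listed genes are not reported here. No protein sequences or genome were used here. Plots used matplotlib 3.10.9 (Python 3.11.15).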

Additional observations from a re-analysis of the deposited data

Results flagged for a closer look

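For Slc6a11, a dim probe, each group held an animal apart from the others when measured against the range of the group. The vehicle range itself was narrow, from -5.25 to -5.04. In vehicle, animal 2 at -5.25 log2 units lay below the other 3, with a gap to the nearest of 0.903 of the group's range, past Dixon's critical value at the 95% level for 4 samples. In Y+I, animal 4 at -4.42 lay above the other 3, with a gap of 0.923 of the range. These were 2 of 22 groups examined, and chance gives about 1 in 20.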

How the results depend on the processing

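The member probe counted as called is the brighter Slc6a5 probe, and the count of 1 became 2 with cyclic loess, 2 with normexp and 3 without a filter on background (Slc6a5, Glra3 and Gphn). It became 0 with the filter on all 8 arrays (which removes that probe), with the mean of probes and without Y+I animals 2 and 3, and it was 0 to 1 with 1 array left out (0 without vehicle animal 3, vehicle animal 4 or Y+I animal 2). With the animal number as a replicate block it stayed at 1. For all probes the count of 453 became 790 with cyclic loess, 4358 without a filter, 128 with the replicate block and 157 without Y+I animals 2 and 3, and 121 (without vehicle animal 4) to 349 with 1 array left out. The share of higher calls went from 30.7% to 66.7% with normexp, which moved the median of all probes to 0.10, to 86.8% without a filter, to 43.3% with the filter on all 8 arrays and to 20.3% with the replicate block. The pathway count of 1 (Slc6a13) became 0 without Y+I animals 2 and 3 and was 1 in each of the 8 fits with 1 array left out. The block left Slc6a13 at an adjusted p of 0.0495 in limma. The marker count of 8 became 13 with array weights, 16 without a filter, 3 with the replicate block and 4 without Y+I animals 2 and 3, and 3 to 9 with 1 array left out. The filters and the fits on fewer arrays change how many probes or arrays enter; for the other settings the cause was not tested. Signals near background limit the Slc6a5, Slc6a11 and Glra3 values, and 4 arrays per group limit all values.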
